A study of Mus musculus with 4 samples.

Results

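Intergenic open chromatin shared by knockout and wild-type fibroblasts comprised 1974 regions with an ATAC-seq peak in all 4 libraries. In ATAC-seq a transposase inserts sequencing adapters into accessible DNA, so that a peak marks open chromatin. The regions were chosen by position and presence: each peak list was reduced to its 13877 most significant peaks, the length of the shortest list, and peaks that overlapped by at least 1 bp were merged into 19880 regions. Of these, 8935 had a peak in every library, and 1974 of them (22.1%) lay on assembled chromosomes with their midpoint outside every protein-coding gene span and over 1 kb from every protein-coding gene end. The others comprised 4655 gene-end regions, 2230 intragenic regions and 76 regions on unplaced scaffolds.

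The knockout group was 2 libraries of 10T1/2 cells, a mouse embryonic fibroblast line, carrying a CRISPR-Cas9 knockout of Ranbp2 made with a single guide RNA. All knockout cells descended from 1 clone grown from a single sorted cell, so an effect of the clone cannot be told apart from that of the knockout. The wild-type group was 2 libraries of 10T1/2 cells with intact Ranbp2. Cells of both genotypes were grown in serum-containing medium, and no treatment is given in the labels. Separate cultures are not mentioned for the replicates, and p-values over libraries therefore cover the spread between samples alone, which can be technical. Ranbp2 encodes a large nucleoporin of the cytoplasmic pore filaments, with Ran-binding domains and SUMO ligase activity. Peaks do not measure loss of the protein, so the genotype labels were not checked here.

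Open chromatin away from protein-coding genes includes enhancers, insulators and the starts of noncoding genes. Enhancers are bound by sequence-specific transcription factors and can act on genes at a distance, so the nearest gene is a label of position and not an identified target. In fibroblasts, AP-1, TEAD and RUNX factors are among the proteins known to bind enhancers.

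The labelled cell type was checked at gene ends in the full peak lists. Gene ends of 12 fibroblast markers carried peaks for 3 and 4 markers in the knockout libraries, against 10 and 6 markers in the wild-type libraries. Epithelial, endothelial, pluripotent and skeletal muscle markers lacked gene-end peaks in all 4 libraries, while in wild-type replicate 1 peaks were found at 1 of 6 immune and 2 of 6 neural markers. The lists were of unequal length, 13877 and 24292 peaks in knockout replicates 1 and 2 and 33721 and 18511 peaks in wild-type replicates 1 and 2. Reducing them to 1 length left a lowest −log10 q of 3.01 and 12.6 in the knockout lists and 23.7 and 9.62 in the wild-type lists, so knockout replicate 1 contributed peaks down to a lower significance than the others.

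A group of 91 intergenic members overlapped, by at least 1 bp, windows around the starts of noncoding genes. Windows of 6 such starts are shown as examples of starts with shared and with shifted ranks. They were chosen after their values were seen. The sequences are RefSeq windows of 300 bases, from 250 before to 50 after a gene's start, read 5′ to 3′ on the gene's strand in GRCm38.p6, whose primary coordinates are those of mm10. Capitals mark matches, on either strand, to the AP-1 motif TGANTCA, the cAMP response element TGACGTCA or the SP/KLF motif GGGNGGGG.
Mir22hg start, chr11:75461289-75461588, plus strand: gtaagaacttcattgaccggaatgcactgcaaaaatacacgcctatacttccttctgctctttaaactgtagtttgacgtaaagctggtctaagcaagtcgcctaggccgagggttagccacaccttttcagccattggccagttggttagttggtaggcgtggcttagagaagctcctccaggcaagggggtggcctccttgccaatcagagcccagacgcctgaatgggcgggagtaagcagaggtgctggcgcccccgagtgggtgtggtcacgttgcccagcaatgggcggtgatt
Snhg15 start, chr11:6528711-6529010, minus strand: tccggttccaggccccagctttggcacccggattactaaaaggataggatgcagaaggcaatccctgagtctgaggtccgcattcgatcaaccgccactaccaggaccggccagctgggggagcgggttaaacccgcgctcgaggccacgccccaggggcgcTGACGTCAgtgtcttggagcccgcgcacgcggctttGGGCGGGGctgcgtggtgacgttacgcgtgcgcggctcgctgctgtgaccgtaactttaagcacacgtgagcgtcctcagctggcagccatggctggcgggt
Chaserr start, chr7:73558346-73558645, minus strand: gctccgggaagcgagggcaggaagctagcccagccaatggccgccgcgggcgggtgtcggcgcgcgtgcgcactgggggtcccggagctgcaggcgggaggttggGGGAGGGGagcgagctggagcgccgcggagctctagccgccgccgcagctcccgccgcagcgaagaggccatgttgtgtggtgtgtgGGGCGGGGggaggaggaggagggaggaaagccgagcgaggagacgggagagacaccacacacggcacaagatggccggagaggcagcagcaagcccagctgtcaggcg
4930554I06Rik start, chr19:21104460-21104759, plus strand: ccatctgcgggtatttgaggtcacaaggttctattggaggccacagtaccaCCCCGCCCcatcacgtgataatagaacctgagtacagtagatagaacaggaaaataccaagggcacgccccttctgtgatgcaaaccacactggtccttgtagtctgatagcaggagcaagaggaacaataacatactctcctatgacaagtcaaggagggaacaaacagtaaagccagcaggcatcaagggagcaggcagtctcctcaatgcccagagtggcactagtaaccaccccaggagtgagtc
LOC115487176 start, chr9:61013180-61013479, plus strand: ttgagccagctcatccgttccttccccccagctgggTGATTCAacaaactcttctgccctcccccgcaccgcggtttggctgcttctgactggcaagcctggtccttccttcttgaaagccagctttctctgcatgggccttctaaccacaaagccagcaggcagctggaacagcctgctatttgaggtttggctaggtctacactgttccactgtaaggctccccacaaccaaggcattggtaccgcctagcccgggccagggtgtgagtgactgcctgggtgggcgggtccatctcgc
Morrbid start, chr2:128429302-128429601, minus strand: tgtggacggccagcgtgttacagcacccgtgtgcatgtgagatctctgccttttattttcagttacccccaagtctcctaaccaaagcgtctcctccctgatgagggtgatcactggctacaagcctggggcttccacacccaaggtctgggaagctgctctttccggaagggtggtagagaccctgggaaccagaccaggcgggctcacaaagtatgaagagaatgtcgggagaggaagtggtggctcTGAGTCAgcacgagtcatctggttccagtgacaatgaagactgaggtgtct
The members at these starts covered between 220 and 300 of the 300 bases. The Snhg15 window held 1 cAMP response element and 1 SP/KLF motif, with 29 CpG dinucleotides. The Chaserr window held 2 SP/KLF motifs and 30 CpG dinucleotides, against 4 CpG dinucleotides in the 4930554I06Rik window. The LOC115487176 and Morrbid windows each held 1 AP-1 motif. In the Mir22hg window 0 of these 3 motifs were found.

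The 91 members overlapped 104 start windows, at Rab10os by only 5 bases and without reaching the start. These windows belonged to 97 genes, all of them annotated as long noncoding RNA (lncRNA) genes. The overlapped windows had a median of 14 CpG dinucleotides, against 4 in all 11588 noncoding windows and 13 in the 21263 protein-coding windows of the same length. A cAMP response element was present in 8 of the 104 windows (7.69%), against 0.975% of noncoding, 2.23% of protein-coding and 1.79% of all windows. AP-1 motifs were present in 18 (17.3%), against 9.31% of noncoding, 6.99% of protein-coding and 7.81% of all 32851 windows. SP/KLF motifs were present in 37 (35.6%), against 21.9% of noncoding, 39.4% of protein-coding and 33.2% of all windows. For the cAMP response element, several Gm32287 windows and the Gm14321 window shared a member near Cebpb. The 1810044D09Rik and 4930471M09Rik windows shared a member near Chchd4. The 8 windows with this element therefore came from fewer than 8 members. Other motifs counted were the E-box (66.3%, against 78.4% of noncoding windows), CCAAT (37.5%, 36.0%), TATA (16.3%, 15.5%), TEAD (20.2%, 16.6%), RUNX (26.9%, 20.0%), NRF1 (6.73%, 1.35%) and ETS (4.81%, 1.58%). Some windows belong to the same gene and overlap, and motif matches describe letters and not binding.

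Strength is given below as the rank percentile of a peak within its own reduced list, where 100 is the most significant peak by −log10 q. Values are listed as replicates 1 and 2 of each genotype. The Mir22hg start, which belongs to the host gene of the microRNA miR-22, ranked at percentiles 94.9 and 95 in knockout libraries, against 92.4 and 93.6 in wild-type libraries. The Snhg15 start, a snoRNA host gene, ranked at 81.0 and 76.9 in knockout libraries, against 70.5 and 65.0 in wild-type libraries. Both knockout libraries lay above both wild-type libraries at these starts, by means of 1.95 and 11.2 percentile points.

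The Chaserr start, of a lncRNA gene beside the chromatin remodeller gene Chd2, ranked at 89.4 and 90.1 in knockout libraries, against 90.9 and 94.1 in wild-type libraries. The 4930554I06Rik start ranked at 64.1 and 83.5 in knockout libraries, against 92.9 and 87.1 in wild-type libraries. That of LOC115487176, 133 kb from Uaca, ranked at 29.9 and 38.3 in knockout libraries, against 84.9 and 74.3 in wild-type libraries. At these 3 starts both knockout libraries lay below both wild-type libraries, and the last 2 also overlapped regions that the authors' deposited list gives as enriched in wild-type cells. The Morrbid start, of a lncRNA gene described as a regulator of myeloid cell survival, ranked at 74.9 and 80.8 in knockout libraries, against 79.5 and 74.7 in wild-type libraries, and the genotypes overlapped. Crnde, Dancr and Snhg8 starts also overlapped between genotypes.

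Among 1005 microRNA hairpins in the RefSeq table, 9 lay within 2 kb of 11 intergenic members. Mature sequences are shown for 3 of them, with the seed (bases 2 to 8) in capitals and U for uracil.
mmu-miR-22-3p: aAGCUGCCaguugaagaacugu
mmu-miR-210-3p: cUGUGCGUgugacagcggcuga
mmu-miR-30a-5p: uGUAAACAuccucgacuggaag
The 3 seeds differ from each other. The member 227 bp from the Mir210 hairpin, which encodes a hypoxia-associated microRNA, ranked at 82.8 and 89.2 in knockout libraries, against 89.1 and 83.5 in wild-type libraries. The member 396 bp from the Mir22 hairpin ranked at 47.1 and 54.8 in knockout libraries, against 18.8 and 52.9 in wild-type libraries. In both cases the genotypes overlapped. The member 538 bp from the Mir30a hairpin ranked at 22.3 and 33.2 in knockout libraries, against 60.3 and 37.9 in wild-type libraries, so both knockout libraries lay below both wild-type libraries there. A second member near Mir30a, 999 bp away, ranked at 15.7 and 39.4 in knockout libraries, against 41.6 and 28.5 in wild-type libraries, and the genotypes overlapped.

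Intergenic members had a median width of 297 bp (quartiles 236 and 380), beside 299 bp for all regions, and together they covered 649.6 kb. Overlap of the 4 peaks was required by the choice of members. In 1929 (97.7%) each library contributed exactly 1 peak, and the 4 summits lay within 50 bp of each other in 1165 (59.0%), with a median spread of 41 bp. The median distance to a protein-coding gene was 22.0 kb (quartiles 7.83 and 69.1), with 1593 members within 100 kb and 381 beyond. Members just past the 1 kb limit lay 1.02 kb from Slc11a1 and 1.05 kb from Gtf3c6, and the regions just within it lay 0.995 kb from Psma3 and 0.992 kb from Polr3gl. The Slc11a1 member ranked at percentiles 58.8 and 78.2 in knockout libraries, against 72.8 and 65.3 in wild-type libraries, and the Psma3 region at 50.5 and 27.2 in knockout libraries, against 26.7 and 32.4 in wild-type libraries. The Gtf3c6 member ranked at 78.5 and 65.4 in knockout libraries, against 75.3 and 81.9 in wild-type libraries, and the Polr3gl region at 37.1 and 59.8 in knockout libraries, against 43.4 and 39.5 in wild-type libraries. The members had 1457 different nearest genes, of which 1151 had 1 member and 17 had at least 5.

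Intergenic peaks made up 29.6% (Wilson 95% interval 28.9 to 30.4) and 26.5% (25.8 to 27.3) of the reduced knockout lists, against 24.8% (24.1 to 25.5) and 25.8% (25.1 to 26.6) of the wild-type lists. The knockout mean of 28.1% ± 2.2 lay above the wild-type mean of 25.3% ± 0.734 (SD, n = 2 each) by 2.79 points. Both knockout libraries lay above both wild-type libraries, knockout replicate 2 by less than 1 point over wild-type replicate 2. A two-sided exact permutation test gave p = 0.333, which is the smallest that 2 libraries against 2 allow, so no such comparison can pass 0.05. With all deposited peaks the shares were 29.6% and 34.3% in knockout libraries, against 34.4% and 28.8% in wild-type libraries, and the mean difference was 0.403 points (exact permutation p = 1.0).

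The median rank percentile of the 1974 members was 63.1 and 61.1 in knockout libraries, against 60.3 and 60.9 in wild-type libraries. The difference of the means was 1.49 points (exact permutation p = 0.333), and it reversed to -0.411 points without knockout replicate 1. Gene-end regions ranked higher, with medians of 69.7 and 72.2 in knockout libraries and 73.0 and 72.1 in wild-type libraries. Intergenic members thus ranked lower than gene-end regions by 6.60 and 11.1 points in the knockout libraries and by 12.7 and 11.2 points in the wild-type libraries. This direction held in 4 of 4 libraries (mean -10.4 ± 2.63 points, SD, n = 4; exact sign-flip p = 0.125, the smallest that 4 libraries allow). Intragenic regions had medians of 60.1 and 60.6 in knockout libraries and 60 in both wild-type libraries, close to those of intergenic members.

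**Figure D1:**
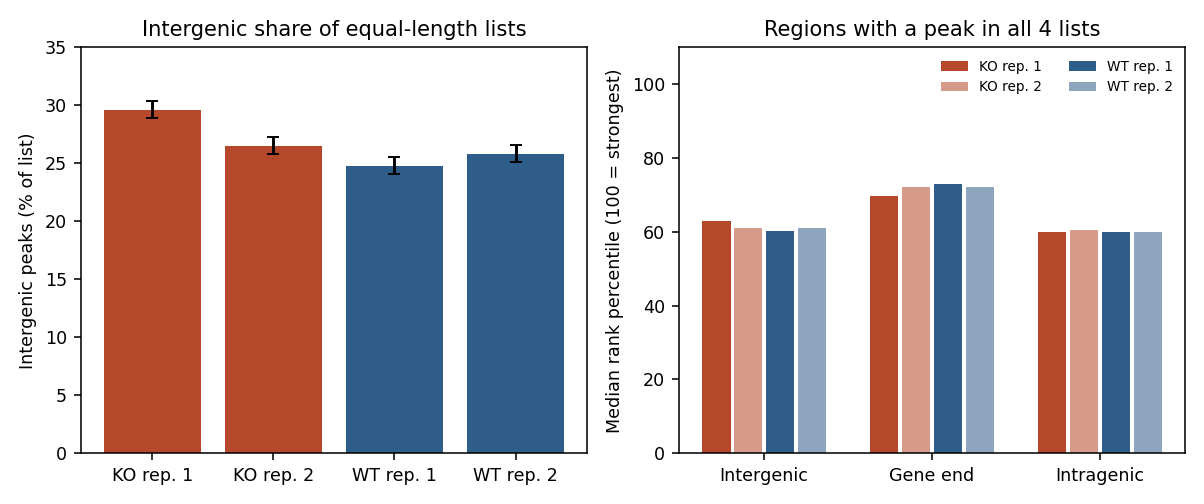
Left, intergenic peaks as a percentage of each reduced list, with Wilson 95% intervals for counting error; right, median rank percentile of intergenic, gene-end and intragenic regions in each of the 4 libraries. The knockout shares of 29.6% and 26.5% lie above the wild-type shares of 24.8% and 25.8%, and gene-end medians lie above intergenic medians in every library.

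Ranks that did not overlap between genotypes were more often higher in knockout among intergenic members than among all regions. In 567 members (28.7%) both knockout percentiles lay above both wild-type ones, beside 21.1% of all 8935 regions. In 467 members (23.7%) both lay below, beside 25% of all regions. With all deposited peaks in place of lists of equal length, more members were lower than higher, with 369 higher and 672 lower. Under that setting 13.4% of members were higher, beside 7.08% of all regions, and 24.4% lower, beside 25.5% of all regions. Of gene-end regions 15.6% were higher and 25.8% lower, and of intragenic regions 23.6% were higher and 25.3% lower. The mean difference exceeded 20 points in either direction in 535 members (27.1%), beside 18.2% of all regions and 23.7% of intragenic regions. Among those without overlap, 263 were higher and 227 lower in knockout. Percentiles are relative within a list, so the values of 1 class depend on those of the others, and differences between classes in these shares were not tested. In bulk cells a larger share of open cells and greater openness per cell cannot be told apart.

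The share of higher members also differed from gene ends within bins of strength. All regions were divided into 4 bins of equal size by mean percentile. In the weakest bin 24.8% of intergenic members were higher in knockout, against 17.4% of gene-end regions. In the next bins these shares were 28.5% against 16.2% and 29.8% against 16.3%. In the strongest bin they were 34.5% against 13.6%. Intragenic regions were closer, with 24.7%, 23.7%, 23.4% and 21.6% higher in the same order of bins. The lower shares of intergenic members were 23.3%, 27.0%, 24.7% and 18.1%, against 22.3%, 25.8%, 24.7% and 28.9% of gene-end regions, and were smaller than those of gene-end regions in the strongest bin only. Differences in that bin were small, with medians of 0.0901 points for intergenic members and -0.854 points for gene-end regions. Only 1.37% of its intergenic members differed by over 20 points. Strength was not equal within this bin. Median percentiles of its intergenic members were 96.1 and 94.2 in knockout libraries, against 91.5 and 93.2 in wild-type libraries. Those of its gene-end regions were 90.4 and 91.3 in knockout libraries, against 92.1 and 91.4 in wild-type libraries. Members in groups of 5 or more, joined within 10 kb, were kept in the bins and made up 28 of the 98 strongest members. Shares by bin without them are not given here.

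Members far from genes had a larger share of higher ranks than members near them. Of the 381 members over 100 kb from a protein-coding gene, 146 (38.3%) were higher and 79 (20.7%) lower in knockout, and of the 1593 within 100 kb 26.4% were higher and 24.4% lower. Between 200 and 500 kb 81 of 168 members (48.2%) were higher, and 45 of 127 (35.4%) without members in groups of 5 or more. Beyond 500 kb 7 of 34 members (20.6%) were higher, so the share did not increase steadily with distance. Far members also ranked above near members, by 2.98 and 3.91 points in the knockout libraries and by 5.33 and 5.90 points in the wild-type libraries (mean 4.53 ± 1.33 points, SD, n = 4; exact sign-flip p = 0.125). That difference depended on the settings: it was 0.994 points (exact sign-flip p = 0.75) when noncoding genes were also excluded, 1.42 points with all peaks and 12 points with 10000 peaks per list. The share and the difference were both smaller when members in groups of 5 or more, joined within 10 kb, were left out: 105 of 334 far members (31.4%) were higher, and far members ranked above near ones by a mean of 0.940 points (exact sign-flip p = 0.50). That left-out set was chosen after the data were seen.

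**Figure D2:**
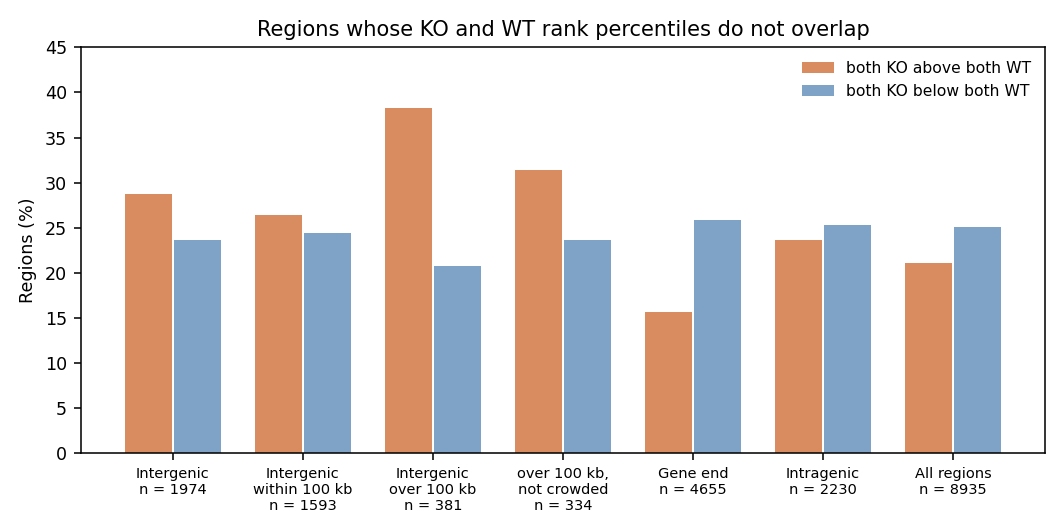
Percentage of regions with a peak in all 4 lists in which both knockout rank percentiles lie above (orange) or below (blue) both wild-type ones, by position; the number of regions stands under each pair of bars. Intergenic members over 100 kb from a gene have the tallest higher bar, 38.3%, which is 31.4% when members in groups of 5 or more are left out, and gene-end regions have the shortest, 15.6%.

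Some intergenic members lay in dense groups. When members within 10 kb of each other were joined, 1536 stood alone, 438 fell into 167 groups and 8 groups held at least 5 members each, 85 in all. Of these 85, 59 (69.4%) were higher and 7 (8.24%) lower in knockout, beside 21.1% and 25% of all regions. The median percentiles of the 85 were 98.4 and 95.7 in knockout libraries, against 83.2 and 90.1 in wild-type libraries. Their median fold enrichment at the summit was 5.79 and 5.86 in knockout libraries and 6.45 and 6.94 in wild-type libraries, and the same medians over the other 1889 members were 8.10 and 10.1 in knockout libraries and 13.6 and 11.3 in wild-type libraries. The fold enrichment is the authors' value for each separately called list. It describes peaks within a list and was not compared between libraries. The pattern was not particular to these groups. Of the 76 regions on unplaced scaffolds 67 (88.2%) were higher and 2 lower in knockout. Their median percentiles were 98.2 and 95.5 in knockout libraries, against 84.4 and 88.0 in wild-type libraries, and their median fold enrichment was 3.88 to 4.41 per library.

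The largest group lay at the start of the assembled sequence of chromosome 9, at 3000007-3038241. It held 41 members within 38235 bp, 297 kb or more from Alkbh8, a tRNA methyltransferase gene, with a median fold enrichment of 3.71. Its median percentiles were 98.6 and 97.4 in knockout libraries, against 88.1 and 94.8 in wild-type libraries. By rank, 36 members were higher and 0 lower in knockout. The median −log10 q of the group was 100.6 and 118.6 in knockout libraries, against 115.4 and 74.1 in wild-type libraries. These values overlapped between genotypes, so the higher ranks were relative to the other peaks of each list. Whether the group was more open in knockout was not tested. A group of 6 members on chromosome 14 (19415717-19418909), 115 kb from Gm2244, had medians of 99.73 and 99.78 in knockout libraries, against 99.60 and 99.56 in wild-type libraries. Near Lrrc4c, 1031 kb or more from its end on chromosome 2, 3 members at 98662238-98667319 ranked above 99.9 in all 4 libraries. The sources used here do not state how reads with several mapping positions were treated, and repeat content was not examined.

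A different crowded stretch lay beside Hrh1, the histamine H1 receptor gene, on chromosome 6. All 9 members nearest Hrh1, between 11.5 and 70.0 kb from it, were higher in knockout, with a median difference of 33.6 points. The member 42.3 kb away ranked at 72.4 and 71.4 in knockout libraries, against 12.5 and 34.1 in wild-type libraries. The one 54.7 kb away ranked at 97.8 and 94.1 in knockout libraries, against 52.4 and 57.8 in wild-type libraries. The smallest difference, 13.7 points, was at 14.2 kb, with 71.1 and 76.5 in knockout libraries and 54.7 and 65.5 in wild-type libraries. None of these 9 members overlapped the authors' deposited knockout-enriched list.

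Near Tcte2 on chromosome 17, 9 of 10 members were higher and 1 lower in knockout, and near Olfr161 on chromosome 16, 6 of 7 were higher and 1 lower. Other sets had more lower than higher members, where 21.1% of all regions were higher and 25% lower. Of 9 members nearest Irf2bp2 on chromosome 8, 1 was higher and 3 were lower. In a group of 8 members beside Gm40363 on chromosome 6, 0 were higher and 2 lower, with a median difference of -0.196 points. For both sets the lower counts were near the share of all regions. All 3 members nearest Txn2, the mitochondrial thioredoxin gene on chromosome 15, were lower in knockout. The one 33.1 kb away ranked at 33.4 and 20.5 in knockout libraries, against 68.9 and 77.9 in wild-type libraries. Of 5 members nearest Reep3 on chromosome 10, 3 were lower and 0 higher.

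**Figure D3:**
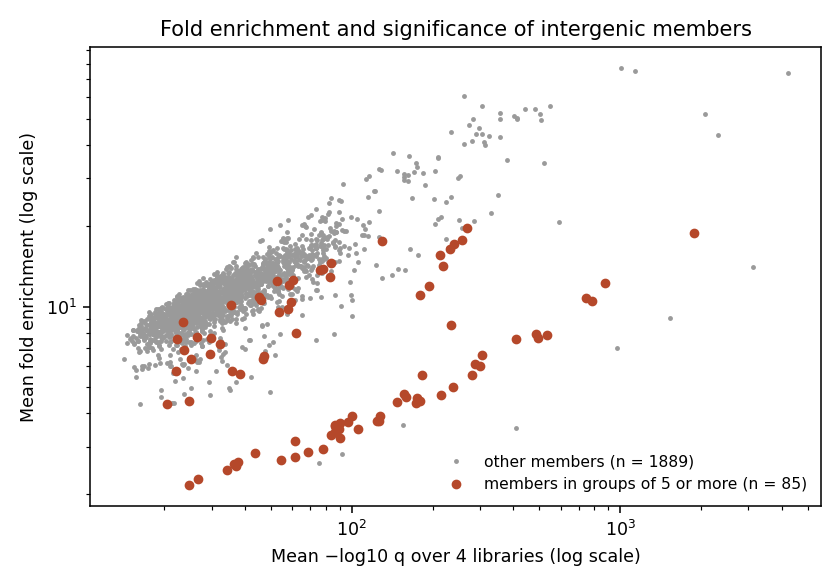
Mean fold enrichment against mean −log10 q over the 4 libraries for each intergenic member, both on log scales; members in groups of 5 or more are in red and all others in grey. Many of the 85 grouped members lie below the main cloud, with a low fold enrichment for their significance; their median fold enrichment per library was 5.79 to 6.94.

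At the top of the lists, percentiles have no room to differ. The 28 members with a mean fold enrichment over 40 had a median width of 186 bp and median percentiles of 99.70 and 99.63 in knockout libraries, against 99.68 and 99.70 in wild-type libraries. Among these, the region 29.4 kb from Rpusd4, a mitochondrial pseudouridine synthase gene, ranked at 99.98 in both knockout libraries, against 99.97 and 99.98 in wild-type libraries. Of the 28, 2 were higher and 4 lower in knockout. The farthest member of all lay 2138 kb from Cntnap5b on chromosome 1 and ranked at 99.0 and 99.3 in knockout libraries, against 99.5 in both wild-type libraries.

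Single members with the largest differences lay near genes of varied function. The largest rise was 11.9 kb from Myo16, an unconventional myosin gene (chromosome 8, 10646460-10646808), at 76.6 and 77.9 in knockout libraries, against 4.24 and 2.64 in wild-type libraries. A region 14.5 kb from Mef2a, a muscle transcription factor gene, ranked at 87.1 and 75.7 in knockout libraries, against 8.16 and 34.7 in wild-type libraries. A region 25.4 kb from Eln, which encodes elastin, ranked at 68.4 and 65.3 in knockout libraries, against 13.9 and 3.31 in wild-type libraries. All 3 had peaks in every library and moved up the knockout lists, and none overlapped a deposited differential region.

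The largest drop was 303 kb from Nuak1, an AMPK-related kinase gene on chromosome 10 (84067146-84067666), at 15.6 and 30.0 in knockout libraries, against 98.2 and 88.6 in wild-type libraries. A region 363 kb from Nfib, a nuclear factor I gene on chromosome 4, ranked at 44.5 and 8.53 in knockout libraries, against 86.0 and 83.0 in wild-type libraries. A region 27.6 kb from Usp3, a deubiquitinase gene on chromosome 9, ranked at 16.4 and 5.72 in knockout libraries, against 80.0 and 60.3 in wild-type libraries. The genotypes did not overlap at these 3 regions, and the last also lay in the authors' deposited wild-type-enriched list.

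The authors' deposited lists of differential regions, which carry no statistic, overlapped a small share of the intergenic members. Of the 1974 members 36 overlapped the knockout-enriched list, beside 0.929% of all regions, and 34 overlapped the wild-type-enriched list, beside 1.61% of all regions. As shares of the members these are 1.82% and 1.72%. In the same order, the shares were 0.301% and 1.59% of gene-end regions and 1.35% and 1.61% of intragenic regions. The share in the knockout-enriched list was thus larger among intergenic members than among gene-end regions, a difference that was not tested. Among the 36, 32 were higher in knockout by rank and 0 lower, and among the 34, 28 were lower and 0 higher. These lists and ranks come from the same experiment and are not independent. The median KO minus WT difference was 27.4 points for the 36 and -24.6 points for the 34.

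Of the 36 members in the knockout-enriched list, 2 had an AP-1 gene and 1 an extracellular matrix gene as nearest gene, and the examples here are single regions and not a theme of the list. A region 30.4 kb from Jun, an AP-1 subunit gene, ranked at 75.1 and 90.1 in knockout libraries, against 69.1 and 42.8 in wild-type libraries. One 13.8 kb from Runx3, a RUNX transcription factor gene, ranked at 78.0 and 81.7 in knockout libraries, against 34.4 and 59.2 in wild-type libraries. One 50.1 kb from Col5a1, a fibrillar collagen gene, ranked at 86.4 and 88.7 in knockout libraries, against 75.7 and 68.4 in wild-type libraries. Others lay near Lpp, a focal adhesion gene, Dio3, which inactivates thyroid hormone, Sulf1, an extracellular sulfatase gene, and Unc5b, a netrin receptor gene.

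Members of the wild-type-enriched list lay near Abca1, the cholesterol efflux transporter gene, Vdr, the vitamin D receptor gene, Tnc, which encodes tenascin-C, Cdk6, a cell cycle kinase gene, Tcf4, an E-protein gene, and Btg1. The region 68.0 kb from Abca1 ranked at 62.5 and 56.1 in knockout libraries, against 90.6 and 89.1 in wild-type libraries. The region 189 kb from Cdk6 ranked at 26.3 and 57.9 in knockout libraries, against 74.4 and 72.1 in wild-type libraries. For both the knockout values lay below both wild-type values. The region 6.17 kb from Vdr ranked at 70.4 and 79.1 in knockout libraries, against 68.9 and 92.1 in wild-type libraries, and the genotypes overlapped there.

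Noncoding genes of other kinds bordered many members. Within 1 kb of the end of a noncoding RefSeq gene lay 317 members (16.1%): 202 at lncRNA, 42 at tRNA, 25 at pseudogene, 18 at small nuclear RNA (snRNA) and 8 at microRNA genes, with the rest in other classes. Of the 317, 23.0% were higher and 25.6% lower in knockout, against 29.8% and 23.3% of the other 1657 members. Outside and over 1 kb from every RefSeq gene lay 1377 members (69.8%).

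snRNA genes encode RNAs of the spliceosome and of transcription control. Of the 18 members at snRNA gene ends 0 were higher and 8 (44.4%) lower in knockout, beside 21.1% and 25% of all regions. The 8 are not separate loci: joined within 10 kb they form 5, and the 18 form 14. Of the 18, 4 overlapped the deposited wild-type-enriched list. The member at Rnu11, a U11 RNA gene of the minor spliceosome, ranked at 37.0 and 37.3 in knockout libraries, against 66.5 and 79.6 in wild-type libraries. The member at Rnu2-10, a U2 RNA gene, ranked at 76.7 and 86.2 in knockout libraries, against 84.7 and 88.3 in wild-type libraries, and that at Rn7sk, which encodes the 7SK RNA that restrains transcription elongation, at 66.7 and 76.7 in knockout libraries, against 67.9 and 70.1 in wild-type libraries. The genotypes did not overlap at Rnu11 and overlapped at Rnu2-10 and Rn7sk. Of 42 members at tRNA gene ends 9 were higher and 9 lower. snRNA and tRNA genes are multicopy families, so peaks at them are uncertain where reads could have come from another copy.

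**Figure D4:**
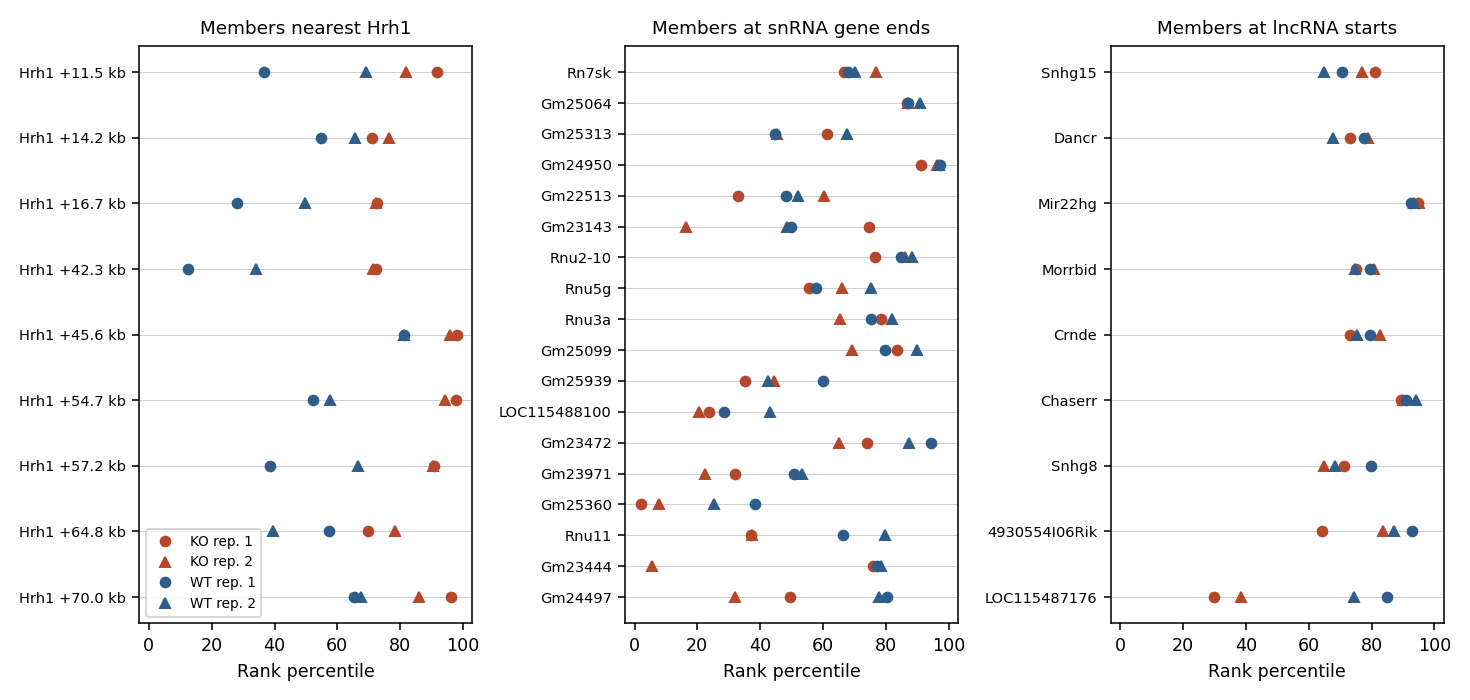
Rank percentile (0 to 100) in each library, knockout in red and wild-type in blue, with circles for replicate 1 and triangles for replicate 2, of the 9 members nearest Hrh1 (ordered by distance), the 18 members at snRNA gene ends and 9 members at lncRNA starts (both ordered by the knockout minus wild-type difference). All 9 Hrh1 rows have both knockout symbols to the right of both wild-type symbols, and 0 of the 18 snRNA rows do.

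Gene lists differed in how many of their genes were nearest to an intergenic member. Over all 21887 protein-coding genes 6.66% were the nearest gene of at least 1 member. The share was 22 of 45 extracellular matrix genes (48.9%), 7 of 19 AP-1 genes (36.8%), 11 of 31 cell cycle and p53 genes (35.5%), 13 of 42 TGF-beta and BMP genes (31.0%) and 10 of 35 genes (28.6%) in both the mesenchymal transcription factor and the inflammatory and interferon lists. Further lists had 26.1% (TEAD, YAP and their targets), 25% (skeletal muscle, fat, bone and cartilage regulators), 16.7% (actin and smooth muscle), 15% (Wnt signalling) and 14.7% (growth factors and receptors). It was 2 of 45 nuclear pore, Ran and SUMO genes (Kpna1 and Nup160), 2 of 39 Hox genes, 2 of 10 epithelial markers, 1 of 9 endothelial markers and 0 of the immune, neural and pluripotent markers. The spacing of genes was not taken into account, and the lists were not tested.

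AP-1 genes, whose products pair as Fos and Jun proteins, had 12 members, 3 higher (25%) and 6 lower (50%) in knockout, beside 28.7% and 23.7% of all members. Besides the Jun region described above, the region 18.6 kb from Fos ranked at 94.0 and 94.9 in knockout libraries, against 96.6 and 95.7 in wild-type libraries. The region 20.5 kb from Fos ranked at 42.1 and 45.4 in knockout libraries, against 72.1 and 70.5 in wild-type libraries. A pair of regions near Fosb split, 1 higher and 1 lower. Of these, the one 10.0 kb from Fosb ranked at 76.0 and 76.1 in knockout libraries, against 60.2 and 46.0 in wild-type libraries.

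Extracellular matrix genes had 34 members, 9 higher (26.5%) and 7 lower (20.6%), near the 28.7% and 23.7% of all members. The region 39.7 kb from Col6a1, a collagen VI gene on chromosome 10, ranked at 30.0 and 24.4 in knockout libraries, against 72.8 and 62.8 in wild-type libraries. The region 17.1 kb from Col1a2, a type I collagen gene on chromosome 6, ranked at 76.9 and 75.4 in knockout libraries, against 62.4 and 60.8 in wild-type libraries. The region 7.25 kb from Col1a1, the other type I collagen gene, on chromosome 11, ranked at 36.2 and 39.6 in knockout libraries, against 68.5 and 69.7 in wild-type libraries. Members near the type I collagen genes therefore did not share 1 direction.

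TGF-beta and BMP genes had 21 members, 6 higher (28.6%) and 2 lower (9.52%), so the higher share was that of all members (28.7%), whose lower share was 23.7%. Both regions near Smad7, an inhibitory Smad gene, were higher, the one 25.1 kb away at 29.4 and 35.4 in knockout libraries, against 7.97 and 12.1 in wild-type libraries. Of 6 members nearest Myc, the proto-oncogene on chromosome 15, 4 were higher and 0 lower in knockout. The region 338 kb from Myc, beside the lncRNA gene Pvt1, ranked at 92.8 and 86.3 in knockout libraries, against 78.9 and 83.2 in wild-type libraries. The nearest of the 6, at 53.6 kb and inside Pvt1, ranked at 66.2 and 57.6 in knockout libraries, against 65.6 and 70.7 in wild-type libraries, and the genotypes overlapped.

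Intergenic members shifted together on some chromosomes, and gene-end regions shifted the same way on only some of these. On chromosome 15, with 124 members, the median difference between knockout and wild-type percentiles was -5.71 points. There 27 were higher (21.8%) and 50 lower (40.3%), beside 21.1% and 25% of all regions and 28.7% and 23.7% of all members. The 6 Myc members lay on that chromosome, where 4 were higher and the other 2 overlapped between genotypes. On chromosomes 10 and 13 the medians were -4.56 and -4.30 points. On chromosome 17, with 100 members, the median was 4.37 points, and on chromosome 3 it was 4.23 points. Of the chromosome 17 members 40 (40%) were higher and 23 (23%) lower, the latter near the share of all members. The 15 members on chromosome Y had a median of 16.5 points. The medians of gene-end regions were -5.15 points on chromosome 10, -7.82 on 13, -3.36 on 15 and 2.95 on 17, while on chromosome 3 the gene-end median was -0.0270 points. Of the 16 regions on chromosome Y 15 were intergenic, so its gene-end value of 15.7 points rests on a single region.

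In each of the 4 pairs of 1 knockout and 1 wild-type library, the median shift of intergenic members was above 0 on 13 of 21 chromosomes and below 0 on chromosomes 10, 13 and 15. Among the 13, gene-end medians were above 0 on chromosomes 1, 8, 17, 18 and Y. They were below 0 on chromosomes 3, 4, 6, 7, 9, 14, 16 and X. On chromosome X the gene-end median was -3.52 points, against 2.71 points for intergenic members, and on chromosome 4 it was -1.19 against 3.12 points. The largest median shift between replicates of 1 genotype, on chromosomes with at least 45 members, was 3.78 points, on chromosome 3. Chromosome 9, which holds the group of 41 members, had a median of 0.155 points for its intergenic members and of -6.35 points for its gene-end regions.

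**Figure D5:**
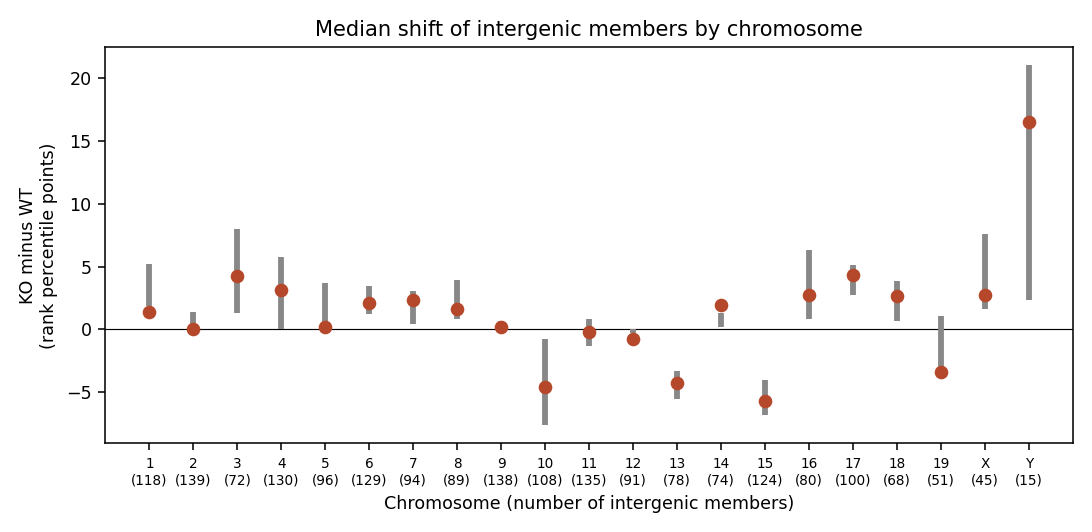
Median over the intergenic members of each chromosome of the difference in rank percentile, knockout minus wild-type mean (points), and the range of the median differences over the 4 pairs of 1 knockout and 1 wild-type library (grey bars, which need not contain the point); member counts are in parentheses. Chromosomes 10, 13 and 15 lie below 0 in every pair, chromosome 17 at 4.37 points above it, and chromosome Y, with 15 members, highest.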

How the data were processed

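ATAC-seq measured open chromatin in 2 knockout and 2 wild-type libraries of 10T1/2 cells, grouped by the genotype in the labels. Per the submitters' processing notes the build was mm10 and the named tools include MACS2 and DiffBind 2.2.12, beside DESeq2, Bowtie2, cutadapt and deepTools, in no stated order. The authors called peaks in each library separately. The deposited score is 10 times the −log10 q with decimals dropped, the deposited fold enrichment is a ratio to local background within that library, and the deposited −log10 p and −log10 q values come from the peak caller. Lists of 189 knockout-enriched and 190 wild-type-enriched regions were deposited as positions only. No threshold is stated for them.

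Read counts are absent from these files, so depth is unknown. Each list was reduced to 13877 peaks by −log10 q (ties by fold enrichment), and peaks were merged by 1 bp of overlap. A peak's rank was turned into a percentile within its list. Where a library had several peaks in a region the best was used. Gene spans, noncoding genes and sequences came from RefSeq tables for GRCm38.p6, matched by position. A genome sequence was not used here. Libraries were compared by two-sided exact permutation tests, and medians within libraries by exact sign-flip tests. Wilson 95% intervals cover counting error only. Regions, nearest genes and promoter windows were named by strength, size of difference, distance, group size and gene list, by a written rule. Other members of gene lists and deposited lists, all members of a nearest gene, and those at lncRNA starts, snRNA and microRNA genes were chosen after their values were seen. The members, lists and tests were chosen with earlier results of these data known. Code was tested on simulated data. Alternatives were ranking by fold enrichment, 10000 or all peaks, 50 bp of shared overlap, a 5 kb limit, exclusion of noncoding genes, leaving out the top 1% by fold enrichment, a replicate block and each replicate in turn. Python 3.11.15, pandas 2.3.3, numpy 2.4.6 and scipy 1.17.1 were used.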

Additional observations from a re-analysis of the deposited data

How the results depend on the processing

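Most results kept their direction under the alternatives run, but none of the tests can pass 0.05 with 4 libraries, so p-values say nothing about stability. The number of members ran from 1332 to 2752 over the alternatives that kept all libraries. Ranks over all peaks of each list, which mix list length with rank, reversed the median shift of the members to -7.21 points (exact permutation p = 0.667). They gave 369 higher members (13.4%, beside 7.08% of all regions) and 672 lower members (24.4%, beside 25.5%). With 10000 peaks per list 290 members were lower in knockout, and with noncoding genes also excluded 22 members overlapped the deposited knockout-enriched list, since fewer regions were counted. With 1 replicate left out at a time, higher members ran from 850 to 912 and lower members from 692 to 825, where the group left with a single library is less strict, and the median shift ran from -0.411 points (without knockout replicate 1) to 3.35 points. The share of higher members exceeded that of all regions under each of these alternatives, the narrowest being 38.0% against 34.6% without knockout replicate 1. Deviations of same-numbered libraries had a correlation of -0.0329. With 2 libraries per genotype this value cannot settle whether replicate numbers mark a pairing. With the replicate block the differences were again 2.79 points for the intergenic share and 1.49 points for the median percentile, each with an exact p of 0.5, the smallest that 2 pairs allow. Low-ranked members are limited by unknown depth.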
